A study of Homo sapiens with 18 samples.

Results

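7SL RNA was followed as all rows of 2 deposited count tables whose repeat name is 7SLRNA. There were 998 such copies among 2404193 rows in the table of the 5-fluorouracil (5-FU) time course, and 1034 among 1996647 rows in the table of the Nutlin experiment, and 886 copies stood in both. All samples were of the wildtype IMR90 cell line, fibroblasts from human lung, and each of the 9 groups had 2 samples. In the 5-FU table the groups were untreated cells, given fresh medium 12 h before extraction, and cells kept in 375 µM 5-FU or in the matching volume of DMSO for 6, 12 or 24 h. In the Nutlin table they were untreated cells, cells in 5 µM Nutlin for 6 h and cells in DMSO for 6 h. Nutlin keeps MDM2 from binding the tumour suppressor p53. 5-FU is a pyrimidine analogue that interferes with the making of RNA and DNA. The series asks how repeat RNA goes with p53. In the Nutlin table both columns of untreated cells held equal values throughout and were counted as 1 sample. The labels do not say whether samples of a group were separate cultures, so p-values measure the spread between these samples, which may be technical. The tables hold no protein-coding genes, so the fibroblast label could not be checked against markers.

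7SL RNA is the RNA scaffold of the signal recognition particle, which brings ribosomes that make secreted and membrane proteins to the endoplasmic reticulum. It is transcribed by RNA polymerase III from a promoter that lies partly inside the gene. A few loci make the functional RNA, and many pseudogene copies and fragments are scattered over the genome. The Alu repeats of primates arose from a 7SL RNA that had lost its middle part, and the monomers FLAM, FRAM and FAM and the brain cytoplasmic RNA BC200 belong to that lineage.

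Positions are those of the row names, on hg19 per the submitters' processing notes. By their spacing to other 7SL and 7SK rows on the chromosome, 4 of the most abundant copies could be given GENCODE names. The copy of 300 bases on chromosome 14 that ends at position 50329567 is RN7SL2, on the minus strand. The copy of 300 bases that ends at position 50053597 is RN7SL1, on the plus strand and 275970 bases away. The copy at chr14:50320333-50320632 is RN7SL3, on the minus strand and 8935 bases from RN7SL2. Each of these names rested on 4 spacings that were equal to the base. The copy at chr6:28945252-28945550 is RN7SL471P, on the plus strand, a name that rests on 1 such spacing, of 1886775 bases to RN7SKP186. GENCODE lists all 4 as single-exon genes of the type misc_RNA. No hg19 annotation was used here, so the other copies were not placed in genes.

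RN7SL1, RN7SL2 and RN7SL3 are close copies of each other. How the authors assigned reads that match several copies is not given in the sources used here, so the division of counts among these 3 copies is uncertain. RN7SL471P also covers bases 1 to 300 of the consensus, so its counts may rest on this as well.

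Levels are given as CPM, counts relative to a library size scaled by trimmed means (TMM). In the 5-FU table the libraries held 2412334 to 6290320 counts, the lowest being the DMSO 12 h pair, with 2412334 and 2540089. 7SL copies took 3.59% to 8.53% of the counts in the other libraries and 10.6% and 12.5% in the DMSO 12 h pair. In the Nutlin table the libraries held 9109885 to 11880265 counts, and 61.7% to 67.9% of these were 7SL. The 2 tables gave RN7SL1 and RN7SL2 in different proportions. RN7SL1 held 68.0% and RN7SL2 29.1% of all 7SL counts of the 5-FU table, and RN7SL2 held 97.8% and RN7SL1 2.10% of those of the Nutlin table. The labels list a single untreated group, to which the untreated columns of both tables were matched. Its replicate 1 had 5.33% of counts in 7SL and a ratio of RN7SL2 to RN7SL1 of 0.417 in the 5-FU table. In the Nutlin table it had 61.7% and 49.2. The cause of this difference was not tested, and values were compared only within a table.

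Of the 996 other copies of the 5-FU table, 426 had no count in any library, 388 had 1 to 9 counts over the 14 libraries, 167 had 10 to 99 and 15 had 100 or more. Of the 1032 other copies of the Nutlin table, 495 had no count, 416 had 1 to 9 over the 5 libraries, 111 had 10 to 99 and 10 had 100 or more. Enough counts for a test were present at 24 of the other copies in the 5-FU experiment and at 28 in that with Nutlin. Of these, 15 and 19 spanned at least 250 bases of the 7SL consensus, and 9 in each table were shorter fragments. The rest are accounted for only in the sum over the other copies. RN7SL471P and RN7SL3 made up 85.8% of the counts of the other copies in the 5-FU libraries and 76.4% in the Nutlin libraries.

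**Figure D1:**
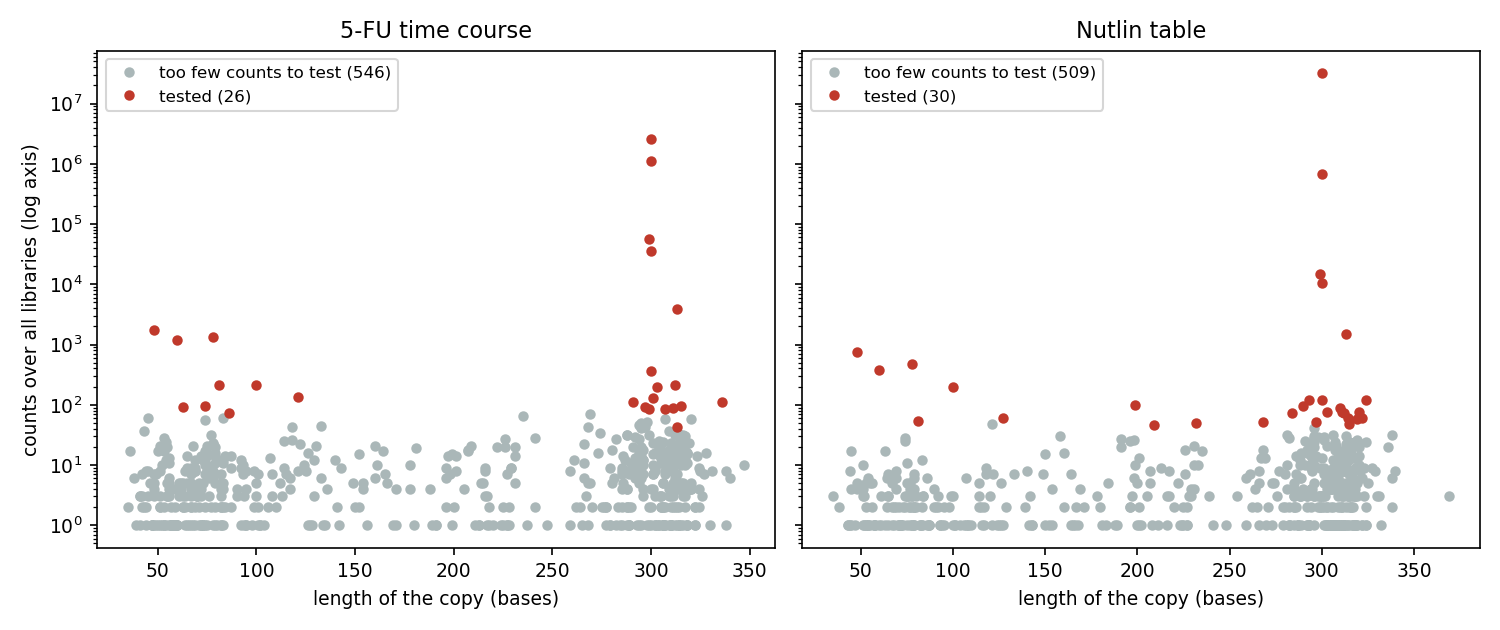
Counts of every 7SL copy with at least 1 count, summed over all libraries (y axis, log), against the length of the copy in bases (x axis), for the 5-FU libraries (left) and those of the Nutlin experiment (right); each point is 1 copy, and red points had enough counts for a test. RN7SL1 and RN7SL2 stand at the top near 300 bases, RN7SL471P and RN7SL3 follow, and most copies have fewer than 10 counts.

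The same 5 other copies had the highest mean CPM in both tables. Per kilobase of copy, the mean level over the 14 libraries of the 5-FU table was 150470 CPM for RN7SL1, 65743 for RN7SL2, 3198 for RN7SL471P and 1916 for RN7SL3. It was 618 CPM per kilobase for a 48-base fragment at chr9:88641343-88641390, 292 for a 78-base fragment at chr19:11561344-11561421 and 201 for a 313-base copy at chr1:10366523-10366835. In the Nutlin table the level per kilobase was 2163540 CPM for RN7SL2, 46537 for RN7SL1, 1020 for RN7SL471P and 724 for RN7SL3. Below RN7SL1 and RN7SL2, the order of the 5 copies by CPM per kilobase was the same in both tables.

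RN7SL2 and RN7SL1, the copies with most 7SL counts, were first compared across the 5-FU time course. RN7SL2 was at 13336 and 14690 CPM in the untreated libraries. It was at 13602 and 11679 CPM with DMSO and at 15826 and 17273 CPM with 5-FU at 6 h. At 12 h it was at 31616 and 41111 CPM with DMSO and at 27376 and 29045 CPM with 5-FU. The DMSO 12 h libraries were thus the highest of the table, above those of the drug at the same time. At 24 h it was at 12325 and 9565 CPM with DMSO and at 24266 and 14409 CPM with 5-FU. The drug and DMSO libraries did not overlap at any of the 3 times, but the order was inverted at 12 h.

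None of these differences of RN7SL2 passed the test with the filter on low counts. The log2 fold change from DMSO was 0.39 (SE 0.30) at 6 h, -0.37 (SE 0.30) at 12 h and 0.82 (SE 0.30) at 24 h, with adjusted p of 0.814, 0.471 and 0.148 (edgeR quasi-likelihood test, Benjamini-Hochberg over 63602 loci, threshold 0.05). At 24 h, leaving out 5-FU replicate 2, the library with 14409 CPM, gave 1.15 (adjusted p 0.00152), and leaving out 5-FU replicate 1 gave 0.40 (adjusted p 0.369). Without the filter on low counts the 24 h values of RN7SL2 and RN7SL1 were called (adjusted p 1.9e-13 and 6.13e-14). Their fold changes stayed at 0.82 and 0.75, and only the SE fell, to 0.096 and 0.087. These p-values therefore rest on the estimate of spread in that fit, not on a larger difference. The sum of all 7SL copies, nearly all of it RN7SL1 and RN7SL2, was called at 24 h, with 0.80 (SE 0.21, adjusted p 0.0257, edgeR over repeat names, of which 9.36% were called), and not at 6 h (0.37, adjusted p 0.498) or 12 h (-0.13, adjusted p 0.639). That call was lost without DMSO 24 h replicate 1, DMSO 24 h replicate 2 or 5-FU 24 h replicate 1 (adjusted p 0.0535, 0.254 and 0.0889), and in a fit on those 4 libraries alone (0.294). CPM are relative to the rest of the library, so a change in 7SL RNA and a change in the other RNA cannot be told apart.

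RN7SL1 followed RN7SL2. It was at 31947 and 34530 CPM in untreated cells. At 6 h it was at 33124 and 29614 CPM with DMSO and at 38220 and 42267 CPM with 5-FU. At 12 h the DMSO libraries had 61867 and 79416 CPM and the 5-FU libraries, which lay between them, 65771 and 68348 CPM. At 24 h the DMSO libraries had 30565 and 24209 CPM and the 5-FU libraries, both higher, 58905 and 33192 CPM. The log2 fold changes were 0.36 (SE 0.33), -0.08 (SE 0.33) and 0.75 (SE 0.33) at 6, 12 and 24 h, with adjusted p of 0.851, 0.916 and 0.243 (edgeR). The 24 h value was 1.105 without 5-FU replicate 2 (adjusted p 0.00217) and 0.28 without 5-FU replicate 1. Over the 14 libraries, which share depth and scaling between rows, log2 CPM of RN7SL1 and RN7SL2 had a Pearson r of 0.99, given as a description.

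**Figure D2:**
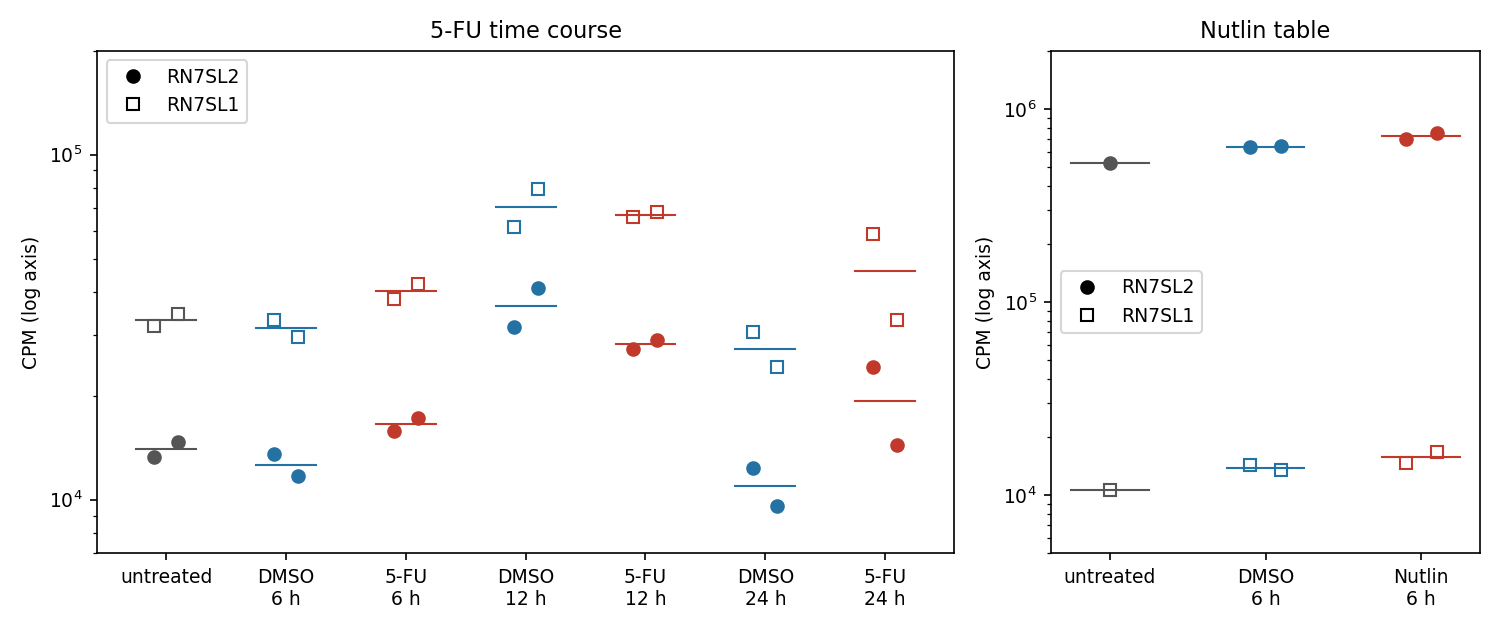
CPM of RN7SL2 (filled circles) and RN7SL1 (open squares) on a log axis, by group, for the 5-FU experiment (left) and the Nutlin experiment (right); each point is 1 library, lines are group means, and grey, blue and red stand for untreated, DMSO and drug. In the 5-FU table RN7SL1 lies above RN7SL2 in every library and the DMSO 12 h pair of RN7SL2 is the highest, and in the Nutlin table the order of both copies is inverted.

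Ordered by group mean, RN7SL2 was highest in DMSO 12 h (36363 ± 6714 CPM, SD, n = 2), then in 5-FU 12 h (28211 ± 1181), 5-FU 24 h (19337 ± 6970), 5-FU 6 h (16550 ± 1023), untreated (14013 ± 958), DMSO 6 h (12641 ± 1360) and DMSO 24 h (10945 ± 1951). Neighbours in this order overlapped between 5-FU 24 h and 5-FU 6 h, and among untreated, DMSO 6 h and DMSO 24 h. For RN7SL1 the order was the same, and DMSO 12 h and 5-FU 12 h overlapped as well.

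Because the DMSO 12 h libraries stood apart, the 12 h values were also set against the other DMSO libraries, a choice made after the values were seen. Against the DMSO 6 h and 24 h libraries together, RN7SL2 in DMSO 12 h was higher by 1.63 in log2 units (SE 0.25, adjusted p 0.00109, edgeR), where 1.78% of all loci were called. RN7SL1 was higher by 1.27 (SE 0.27, adjusted p 0.0176). The sum of the other copies differed by 0.11 (SE 0.15, adjusted p 0.747, edgeR over 1079 repeat names, of which 13.5% were called). When 5-FU 12 h was set against those same libraries, RN7SL2 was higher by 1.26 (adjusted p 0.00206) and RN7SL1 by 1.19 (adjusted p 0.00599). The direction and the call at 12 h for both copies thus depended on which DMSO libraries were used.

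The ratio of RN7SL1 to RN7SL2 counts, which needs no scaling, was 1.96 and 1.93 in the DMSO 12 h libraries. It lay between 2.30 and 2.54 in the other 12. The mean change of this ratio with 5-FU over the 3 times, as RN7SL2 over RN7SL1, was -0.06 on the log2 scale (exact permutation test, two-sided, over labels within each time, p = 0.324, n = 2 per group and time). Since the copies share most of their sequence, this ratio also rests on how shared reads were divided.

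The sum over the other 7SL copies, most of which is RN7SL471P and RN7SL3, rose with 5-FU at 12 and 24 h. This summed level was 1183 and 1319 CPM in untreated cells. The DMSO libraries had 1109 and 1023 CPM at 6 h, then 1073 and 1210 at 12 h, and finally 1109 and 1003 at 24 h, so the DMSO 12 h pair did not stand apart here. The 5-FU libraries had 1337 and 1358 CPM at 6 h, then 3058 and 3791 at 12 h, and finally 3907 and 2437 at 24 h. All 4 libraries of the later times were above every other library of the table. The log2 fold change was 0.34 (SE 0.17, adjusted p 0.475) at 6 h, 1.59 (SE 0.17, adjusted p 3.34e-05) at 12 h and 1.59 (SE 0.17, adjusted p 0.00014) at 24 h, by edgeR over 1079 repeat names. Of these names 0% were called at 6 h, 35.8% at 12 h (17% higher) and 9.36% at 24 h (7.97% higher).

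The effect on this sum differed between times. The 12 h effect exceeded the 6 h effect by 1.25 in log2 units (SE 0.24, adjusted p 0.00726), where 7.51% of the names were called. The 24 h effect exceeded it by 1.25 (SE 0.24, adjusted p 0.0172), where 1.3% were called, and this call was lost when either library of 5-FU 6 h, DMSO 6 h or DMSO 24 h was left out (adjusted p 0.0622 to 0.106). Copy by copy, 1 of 24 was called for 12 h against 6 h, where 0.651% of all loci were called. For 24 h against 6 h 0 of 24 were called, where 0.385% of all loci were. The latter had 4 at an unadjusted p under 0.05 and 2 called by DESeq2. Values were below 0 at 10 and 14 of the 24 copies. For RN7SL2 the corresponding differences were -0.75 (SE 0.43, adjusted p 0.485) and 0.43 (SE 0.43, adjusted p 0.863), and for RN7SL1 -0.43 and 0.39, none of which passed the test.

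Of the 24 other copies tested at 12 h, 4 were called and all 4 were higher (edgeR, 9.71% of all loci called and 5.44% called higher). Over the 11 alternatives other than leaving out single libraries, the count ranged from 2 to 6. The count was 2 without DMSO 12 h replicate 1, without 5-FU 12 h replicate 2 or without the filter on low counts, and 3 without either of the other libraries. At 24 h 2 of the 24 were called, both higher (4.23% of all loci called and 2.42% called higher). At 6 h 0 of 24 were called, with 1 at an unadjusted p under 0.05 and 0 by DESeq2 (0.101% of all loci called). Values were above 0 at 16 of the 24 copies at 12 h and at 9 of the 24 at 24 h. The median log2 fold change of the 24 copies was 0.21 at 6 h, 0.44 at 12 h and -0.17 at 24 h, so the rise of the sum at 24 h lay in few copies. The medians over all loci were -0.001, -0.04 and 0.

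RN7SL471P, a pseudogene copy by its name, had the largest fold change with 5-FU among the abundant copies. Its counts may rest in part on how reads shared with RN7SL1 and RN7SL2 were divided, which was not tested. RN7SL471P was at 630 and 747 CPM in untreated cells. With DMSO it was at 394 and 388 CPM at 6 h, then 540 and 597 at 12 h, and finally 478 and 446 at 24 h. With 5-FU it was at 575 and 552 CPM at 6 h, then 1999 and 2486 at 12 h, and finally 2168 and 1390 at 24 h. The 4 libraries of 5-FU at 12 and 24 h were above all 10 others, and the untreated pair was above every DMSO library. The log2 fold change from DMSO was 1.98 (SE 0.24, adjusted p 1.88e-05) at 12 h and 1.95 (SE 0.24, adjusted p 2.67e-05) at 24 h, and 0.53 (SE 0.23, adjusted p 0.641) at 6 h (edgeR). Leaving out any 1 library of the comparison kept both calls, with values of 1.81 to 2.13 and of 1.59 to 2.23. The 12 h effect exceeded that of 6 h by 1.45 (SE 0.33, adjusted p 0.0382), where 0.651% of all loci were called, but without any 1 of the 8 libraries the adjusted p was 0.0832 to 0.188. The 24 h effect exceeded that of 6 h by 1.42 (SE 0.33, adjusted p 0.0603), where 0.385% of all loci were called. This missed the threshold, but the same difference was called under 6 alternatives, namely library size alone (adjusted p 0.0224), RLE factors (0.0328), scaling without structural RNA (0.0499), no filter (7.17e-08), at least 10 counts in every library (0.0232) and DESeq2 (0.000543).

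RN7SL3, the third chromosome 14 gene, also rose. It was at 282 and 313 CPM in untreated cells. With DMSO it was at 470 and 397 CPM at 6 h, then 322 and 377 at 12 h, and finally 365 and 294 at 24 h. With 5-FU it was at 538 and 567 CPM at 6 h, then 786 and 1023 at 12 h, and finally 1487 and 827 at 24 h. As for RN7SL471P, the 4 later 5-FU libraries were the highest of the table, while the untreated pair was here among the lowest. The log2 fold change was 1.37 (SE 0.25, adjusted p 0.00152) at 12 h, 1.81 (SE 0.25, adjusted p 0.000133) at 24 h and 0.35 (SE 0.25, adjusted p 0.795) at 6 h (edgeR).

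Both remaining calls at 12 h were at low counts. The fragment at chr19:11561344-11561421, which covers the first 78 bases of the consensus, was at 16.3 and 19.9 CPM with DMSO and at 39.1 and 42.1 CPM with 5-FU (a log2 fold change of 1.17 with an SE of 0.27, adjusted p 0.00822, edgeR). This call was lost without DMSO 12 h replicate 1 (adjusted p 0.109) or without 5-FU 12 h replicate 2 (adjusted p 0.0613). At 24 h the fragment had 26.6 and 15.8 CPM with 5-FU and 19.8 and 18.4 with DMSO, which overlap. The copy at chr18:57640146-57640448 had 196 counts over all 14 libraries and a log2 fold change of 2.05 (SE 0.64, adjusted p 0.0441, edgeR). It was named after its value was seen. This call was lost without the filter on low counts and in every fit that left out 1 library of the comparison.

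The other 2 copies with a high mean level were not called by the same test at any time. The copy at chr1:10366523-10366835 stayed between 49.4 and 75.0 CPM in all 14 libraries, with log2 fold changes of -0.09, 0.28 and -0.02 at 6, 12 and 24 h. The fragment at chr9:88641343-88641390 ranged from 18.0 to 46.7 CPM, with log2 fold changes of 0.09, 0.66 and -0.27 (adjusted p 0.963, 0.0993 and 0.651, edgeR). Its 12 h value was called under 4 alternatives, with TMM factors from all copies (0.90, adjusted p 0.0294), at least 10 counts in every library (adjusted p 0.0443), only the libraries compared (0.57, adjusted p 0.0322) and the DMSO 6 h and 24 h libraries as controls (0.79, adjusted p 0.0139).

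**Figure D3:**
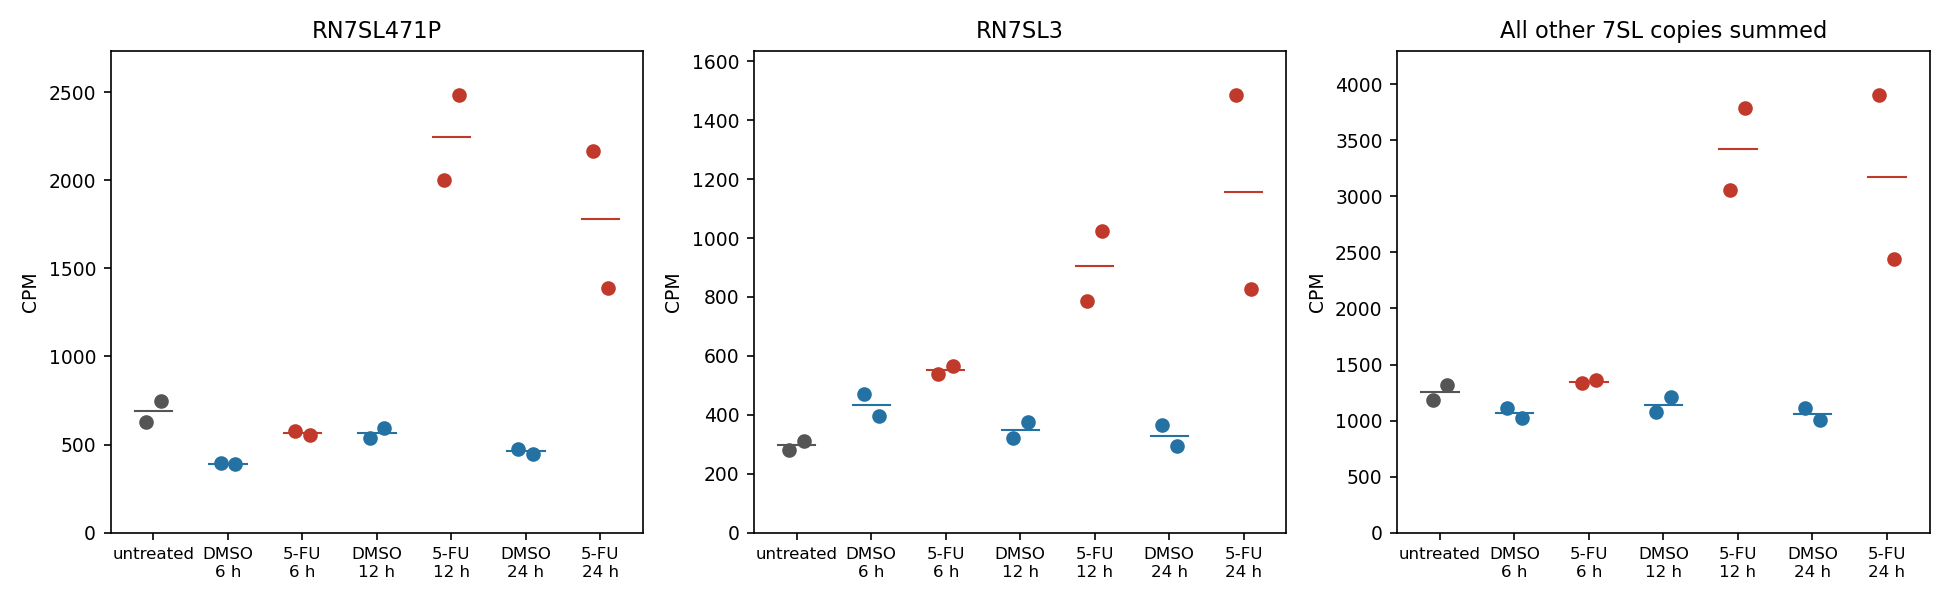
CPM of RN7SL471P (left), RN7SL3 (middle) and the sum of all 7SL copies other than RN7SL1 and RN7SL2 (right) by group in the 5-FU table; points are libraries, lines are group means, and grey, blue and red stand for untreated, DMSO and 5-FU. In each panel the 4 libraries of 5-FU at 12 and 24 h lie above the other 10.

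To compare copies without any scaling, counts were also taken per 1000 counts of RN7SL1 and RN7SL2 together, an analysis added after the data were seen. RN7SL471P had 13.9 and 15.2 per 1000 in untreated cells, 8.43 and 9.40 in DMSO 6 h and 10.6 and 9.27 in 5-FU 6 h. It had 5.78 and 4.95 in DMSO 12 h and 21.5 and 25.5 in 5-FU 12 h. At 24 h it had 11.1 and 13.2 with DMSO and 26.1 and 29.2 with 5-FU. The 4 later 5-FU libraries were again the highest. This measure, too, may rest on how shared reads were divided. The mean log2 difference over the 3 times was 1.16 (exact permutation test, two-sided, over labels within each time, 216 arrangements, p = 0.0185 and 0.108 after adjustment over 7 ratios, with 0.00926 the smallest p possible, n = 2 per group and time).

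RN7SL3 behaved otherwise on this measure. It had 9.95 and 9.52 per 1000 in 5-FU 6 h and 8.44 and 10.5 in 5-FU 12 h, against 10.1 and 9.62 in DMSO 6 h, so its 12 h difference came with the low 3.44 and 3.13 of the DMSO 12 h libraries. At 24 h it had 17.9 and 17.4 with 5-FU and 8.50 and 8.70 with DMSO. Its mean log2 difference over the 3 times was 0.85 (exact permutation test, p = 0.0463, adjusted p 0.108). Of the 7 ratios tested, 0 passed after adjustment, and 3 had an unadjusted p under 0.05, those of RN7SL471P, of RN7SL3 and of the other copies together.

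**Figure D4:**
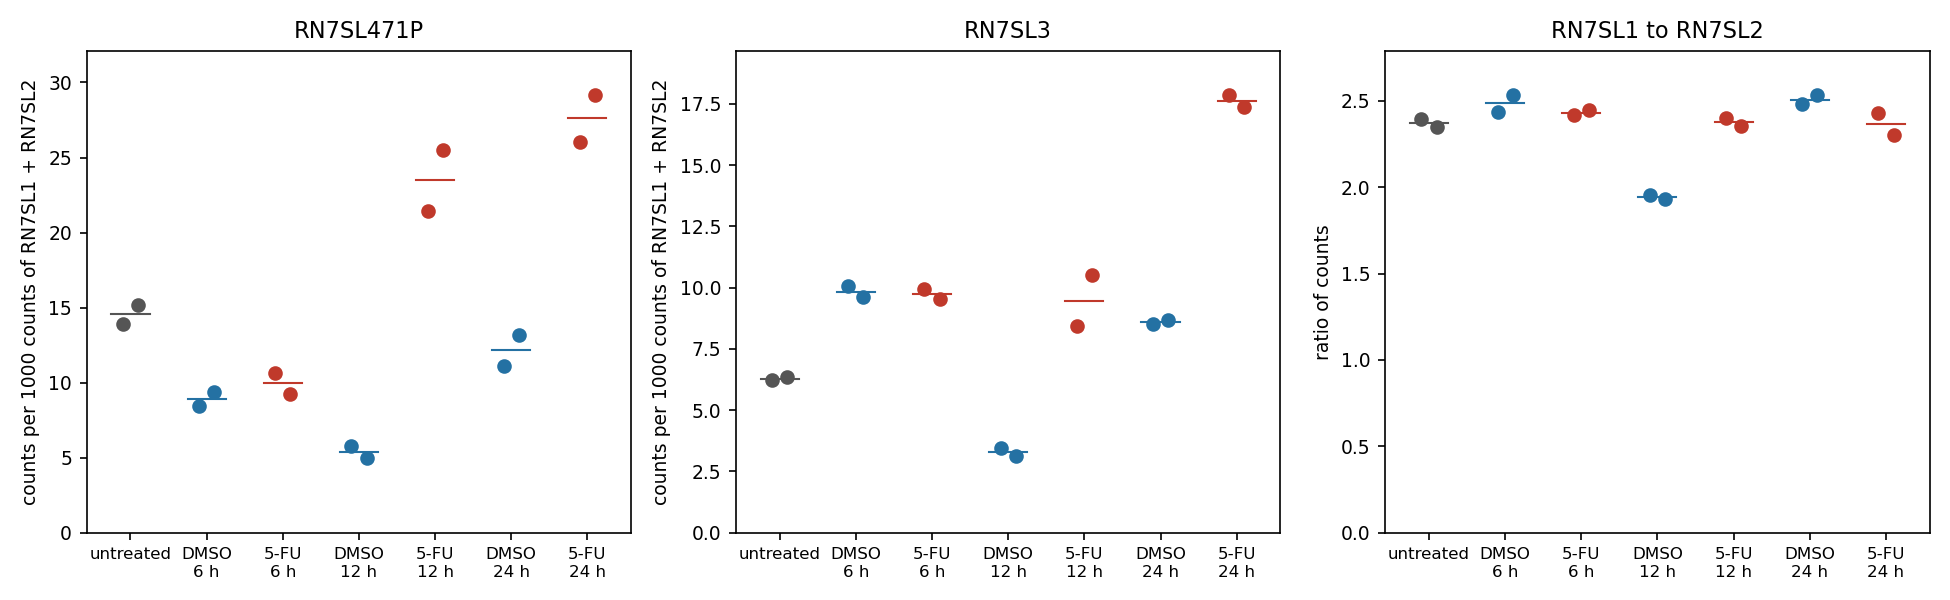
Counts of RN7SL471P (left) and RN7SL3 (middle) per 1000 counts of RN7SL1 and RN7SL2 together, and the ratio of RN7SL1 to RN7SL2 counts (right), by group in the 5-FU table; points are libraries, lines are group means, and grey, blue and red stand for untreated, DMSO and 5-FU. RN7SL471P is highest in 5-FU at 12 and 24 h (21.5 to 29.2), RN7SL3 in 5-FU at 24 h, and the DMSO 12 h pair is lowest in all 3 panels.

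The 3 DMSO groups of the 5-FU table were compared with untreated cells, which had fresh medium 12 h before extraction. Vehicle, time and medium cannot be told apart in this comparison. The log2 difference was 0.29 (SE 0.25, adjusted p 0.623) for RN7SL2, 0.24 (SE 0.27, adjusted p 0.721) for RN7SL1 and -0.20 (SE 0.14, adjusted p 0.313) for the other copies summed (edgeR), and 1.66% of all loci and 14.4% of the names were called. RN7SL471P differed by -0.56 (SE 0.18, adjusted p 0.130). In edgeR it was called with library size alone (adjusted p 0.0089), TMM factors from all copies (0.0435) and no filter (0.00328). It was also called in a fit on only the libraries compared (0.0193) and by DESeq2 (0.0376), while 8 of 13 alternatives kept the main result. Of the 24 other copies 0 were called, with 5 at an unadjusted p under 0.05 and 1 called by DESeq2. The values of RN7SL1 and RN7SL2 rested on the DMSO 12 h libraries. RN7SL2 differed from untreated by 1.38 with these alone (adjusted p 0.0191), and by -0.15 and -0.36 with the DMSO 6 h and 24 h libraries.

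Nutlin was compared with DMSO at 6 h within its own table. RN7SL2 was at 523989 CPM in the untreated library, where it held 60.4% of the counts (95% Wilson interval 60.36% to 60.42%, counting error only). It was at 634877 and 639680 CPM with DMSO and at 696397 and 750371 CPM with Nutlin, so the groups did not overlap. The log2 fold change was 0.18 (SE 0.032, adjusted p 0.00348, edgeR over 24565 loci, of which 7.66% were called and 4.49% called higher). With library size alone as the scaling it was 0.02 (adjusted p 0.732), and without DMSO replicate 1 the adjusted p was 0.0969. As a share of all counts RN7SL2 took 64.4% and 65.9% with DMSO and 65.4% and 66.3% with Nutlin, which overlap. Without the filter on low counts its fold change stayed at 0.18, but the SE rose to 0.59 and it was not called. The sum of all 7SL copies, nearly all of it RN7SL2, was not called (0.18, SE 0.071, adjusted p 0.0723, edgeR over repeat names). That sum was called with TMM factors from all copies (adjusted p 0.0139) and by DESeq2 (adjusted p 0.00887).

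RN7SL1 had the same fold change without passing the test. It was at 10656 CPM in the untreated library, 14256 and 13461 with DMSO and 14717 and 16715 with Nutlin (a log2 fold change of 0.18 with an SE of 0.072, adjusted p 0.153, edgeR). The ratio of RN7SL2 to RN7SL1 was 44.5 and 47.5 with DMSO and 47.3 and 44.9 with Nutlin, so it did not separate the groups. The other copies summed to 556 CPM untreated, 682 and 683 with DMSO and 710 and 779 with Nutlin (a log2 fold change of 0.12 with an SE of 0.067, adjusted p 0.223, edgeR over 1040 names, of which 13.5% were called and 9.23% called higher). RN7SL471P was at 309 and 315 CPM with DMSO and 328 and 344 CPM with Nutlin (a log2 fold change of 0.10 with an SE of 0.10, adjusted p 0.597). RN7SL3 was at 209 and 204 CPM with DMSO and 226 and 268 CPM with Nutlin (a log2 fold change of 0.26 with an SE of 0.11, adjusted p 0.194). Of the 28 other copies 0 were called, with 1 at an unadjusted p under 0.05 and 0 by DESeq2. The median over the 28 was 0.13 and that over all loci 0.0002.

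**Figure D5:**
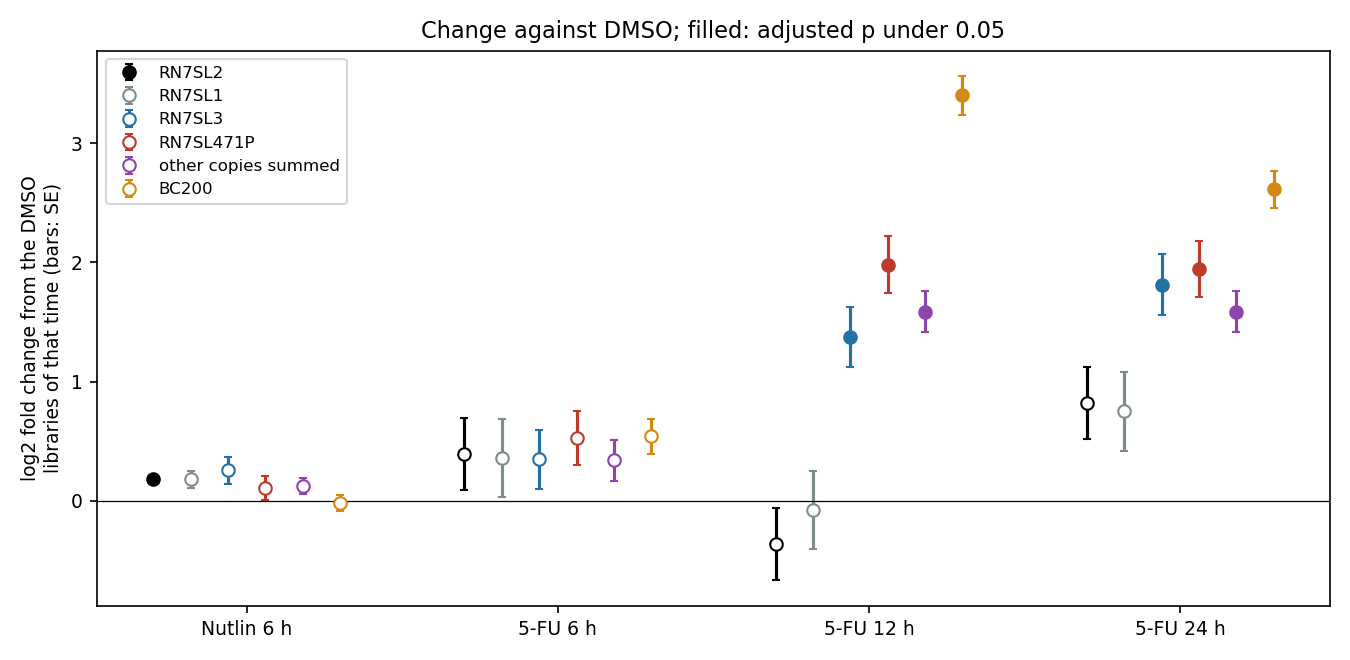
Log2 fold change from the DMSO libraries of the same time (y axis, bars are SE) for RN7SL2, RN7SL1, RN7SL3, RN7SL471P, the sum of the other 7SL copies and BC200, in the Nutlin table and at 3 times of 5-FU (x axis); filled points have an adjusted p under 0.05. At 12 and 24 h of 5-FU the filled points are RN7SL3, RN7SL471P, the other copies and BC200, and RN7SL1 and RN7SL2 are open.

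Repeats that descend from 7SL RNA were read from a list of 5 names. Levels of these names, and of the other small RNAs below, are sums over all copies with that repeat name. They are not levels of a single gene. BC200, an RNA polymerase III transcript best known from neurons, where it binds translation factors, was at 2541 and 2697 CPM in untreated cells. With DMSO it was at 2455 and 2613 CPM at 6 h, then 992 and 1096 at 12 h, and finally 2099 and 2255 at 24 h. With 5-FU it was at 3669 and 3713 CPM at 6 h, then 9913 and 12161 at 12 h, and finally 10686 and 15960 at 24 h. Every 5-FU library thus lay above every DMSO and untreated library. The log2 fold change was 0.54 (SE 0.15, adjusted p 0.336) at 6 h, 3.40 (SE 0.16, adjusted p 2.77e-08) at 12 h and 2.61 (SE 0.155, adjusted p 4.43e-07) at 24 h (edgeR). FLAM_C, a free left Alu monomer, was higher by 0.77 at 12 h and 0.56 at 24 h (adjusted p 0.000132 and 0.00308). At 12 h 4 of the 5 names were called higher, FRAM (0.24) and FAM (0.41) being the others, and at 24 h 2 of 5, with list medians of 0.41 and 0.06 beside -0.07 and 0.07 over all names. Over all names 17% were called higher at 12 h and 7.97% at 24 h. At 6 h and with Nutlin 0 of 5 were called (edgeR, list medians 0.11 and -0.04). BC200 under Nutlin was at 1142 and 1249 CPM against 1193 and 1233 CPM with DMSO.

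The other RNA polymerase III small RNAs did not move as 1 group. At 12 h 3 of 7 were called higher, namely 7SK, the RNA that holds the elongation factor P-TEFb, the Y RNA HY4 and the spliceosomal U6, with a median of 0.48. 7SK was at 60789 and 62309 CPM with DMSO and at 178821 and 207798 CPM with 5-FU at 12 h (a log2 fold change of 1.65 with an SE of 0.20, adjusted p 7.53e-05, edgeR). At 24 h the Y RNAs HY1 (1.24) and HY3 (1.19) were the 2 of 7 called, with a median of 0.60, and 7SK was at 0.60 (adjusted p 0.0785). With Nutlin 7SK alone of 6 tested was called, from 55264 and 56368 to 70044 and 73275 CPM (a log2 fold change of 0.36 with an SE of 0.067, adjusted p 2.02e-05). Beside these counts, 17%, 7.97% and 9.23% of all names were called higher at 12 h, at 24 h and with Nutlin.

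Among 8 small nuclear and nucleolar RNAs made by RNA polymerase II, 5 were called higher and 1 lower at 12 h of 5-FU (median 0.61), 6 higher at 24 h (median 0.79) and 3 higher with Nutlin (median 0.14). Of all names 17% were called higher and 18.8% lower at 12 h, 7.97% higher at 24 h and 9.23% higher with Nutlin. U3, which guides the first cleavages of ribosomal RNA, was the 1 called lower at 12 h (a log2 fold change of -0.44 with an SE of 0.15, adjusted p 0.0331). Like RN7SL2 it was highest in the DMSO 12 h libraries, at 25595 and 29248 CPM, against 20055 and 20246 CPM with 5-FU. In those same DMSO libraries 7SK, BC200, FLAM_C, FRAM, FAM and U13 were at their lowest of the table. Small RNAs thus departed there in both directions. For the names outside 7SL, the part of this in the 12 h results was not tested. RN7SL471P, RN7SL3 and the other 7SL copies summed kept their 12 h calls with the DMSO 6 h and 24 h libraries as controls. Against the other DMSO libraries, BC200 and RN7SL471P in 5-FU 12 h remained higher than every one of them. So did 7SK, U6, FLAM_C, FAM, U1, U2, U4 and U8 among the names called higher. FRAM did not, with 968 and 990 CPM in 5-FU 12 h against 1017 and 1092 CPM in DMSO 24 h. HY4 (59.2 and 74.7 CPM) overlapped DMSO 6 h (58.4 and 60.4 CPM). U13 (40.3 and 57.5 CPM) overlapped DMSO 6 h (46.7 and 51.2 CPM) and DMSO 24 h (44.4 and 52.5 CPM).

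The repeat names whose log2(CPM + 1) was most like that of RN7SL2 over the 14 libraries of the 5-FU table were Mam_R4 (Pearson r 0.94), Tigger16a (0.93), L1M6B (0.90), X7B_LINE (0.89) and MER65-int (0.89). These values share libraries, depth and scaling and are a description. Mam_R4 was at 422 and 401 CPM in DMSO 12 h and at 393 and 402 CPM in 5-FU 12 h, and at 233 to 341 CPM in the other 10 libraries. Of the listed RNAs U3 came nearest (0.81, rank 21 among the names), and BC200 had 0.09. Within the family, RN7SL2 and the sum of the other copies had an r of 0.45.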

How the data were processed

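The authors deposited 2 tables of read counts per repeat copy, from total RNA made into stranded libraries, per the labels' protocols. The submitters' processing notes name hg19, Trimmomatic 0.32, cutadapt 1.10, Bowtie2, edgeR and DESeq2. The counting tool, its use of strand and its treatment of reads that match several copies are not given in the sources used here. The members, gene lists and tests were chosen with earlier results of these data known.

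Copies were tested with edgeR 4.0.16 (quasi-likelihood, all groups of a table in 1 fit, TMM factors from copies kept by filterByExpr, Benjamini-Hochberg threshold 0.05) in R 4.3.3. Sums per repeat name used the same factors. Named copies were both main chromosome 14 copies and the 5 other copies with the highest mean CPM. CPM is relative to the TMM-scaled library. Ratios of counts had an exact permutation test within time points. Alternatives were other scalings and filters, DESeq2 1.42.0, the replicate block, fits on fewer libraries and leaving out each library. The scripts were tested on simulated data. Names came from GENCODE v29 (GRCh38). Its gene positions served for gene lengths, for spacings and for a limit on distance, and no row was converted to GRCh38. The sequences of the copies are not reported here. Intervals cover counting error only. All value columns were matched to samples or groups.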

Additional observations from a re-analysis of the deposited data

Results flagged for a closer look

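The sum of the 7SL copies other than RN7SL1 and RN7SL2 responded to 5-FU differently between times, by an interaction term in edgeR. The 12 h effect exceeded the 6 h effect by 1.25 on the log2 scale (adjusted p 0.00726), and the 24 h effect exceeded it by 1.25 (adjusted p 0.0172). The second call was lost in 6 of 8 fits that left out 1 library (adjusted p up to 0.106) and in the fit on only its libraries (adjusted p 0.0931). RN7SL471P, at chr6:28945252-28945550, differed between 12 h and 6 h by 1.45 (adjusted p 0.0382). This call was lost without any 1 of the 8 libraries (adjusted p 0.0832 to 0.188) and with the replicate block (adjusted p 0.0619). Their causes were not tested.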

How the results depend on the processing

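Over 77 results and 1234 alternative values, 1093 kept direction and call or moved little, and 39 reversed. Where a value below changed, the cause was not tested. With library size alone, which moved the median of all loci by -0.16 (Nutlin) and -0.36 (12 h), the Nutlin values were 0.015 for RN7SL2, -0.043 for the other copies summed, -0.062 for RN7SL471P and -0.014 for the chr19 copy. It gave -0.45 for all copies and -0.050 for the chr1 copy at 12 h, -0.056 for the chr19 copy at 24 h, -0.77 for all copies at 12 h less 6 h, and -0.054 for the chr1 copy at 24 h less 6 h. Other copies called were then 2 for DMSO against untreated and 2 at 24 h less 6 h. TMM factors from all copies gave 0.19 for all copies under Nutlin, 0.17 for RN7SL1 and 0.11 for all copies at 12 h, 0.032 and 0.043 for the chr1 copy at 6 h and 24 h, and 1 call for DMSO against untreated. Without a filter RN7SL2 had 0.18 under Nutlin (adjusted p 1), 0.82 at 24 h (adjusted p 1.9e-13) and -0.75 at 12 h less 6 h, RN7SL1 had 0.75 at 24 h, and calls were 2 at 12 h, 1 for DMSO against untreated, 2 at 12 h less 6 h and 2 at 24 h less 6 h. DESeq2 gave 0.19 for all copies under Nutlin, 1 call for DMSO against untreated and 2 at 24 h less 6 h. Requiring 10 counts gave 1 and 2 for the last 2 of these, RLE factors 2 and scaling without structural RNA 1 at 24 h less 6 h.

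Fits on only the libraries compared gave 0.30 for the other copies and 0.32 for all copies at 6 h, -0.22 and 0.72 for all copies at 12 and 24 h, -0.18 for the other copies in DMSO against untreated (1 call), -0.49 for all copies and 2 calls at 12 h less 6 h, and 1.25 (adjusted p 0.0931) for the other copies at 24 h less 6 h. With DMSO 6 h and 24 h as controls, the 12 h values were 1.26 (RN7SL2), 1.19 (RN7SL1), 1.23 (all copies) and -0.017 (chr1), and those less 6 h were 0.87, 0.83 and 0.86. Single DMSO times against untreated gave -0.15, 1.38 and -0.36 for RN7SL2 at 6, 12 and 24 h, -0.084 and -0.28 for RN7SL1 at 6 and 24 h, -0.11, 1.16 and -0.30 for all copies, and 0.11 for the chr1 copy at 6 h.

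Differences between replicate 1 and 2 correlated between groups at -0.112 to 0.154, the highest being between 5-FU 24 h and DMSO 24 h. These values cannot show whether same-numbered samples shared a culture or a batch. The replicate block took RN7SL471P at 12 h less 6 h to an adjusted p of 0.0619, and calls there from 1 to 0.

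Leaving out single libraries gave, under Nutlin, 0.12 to 0.23 for RN7SL2, 0.076 to 0.26 for RN7SL1, -0.23 to 0.12 for the chr9 copy and 0 to 2 calls. At 6 h it gave -0.20 to 0.0094 for chr1 and -0.086 to 0.29 for chr9. At 12 h it gave -0.23 to 0.12 for RN7SL1, -0.29 to 0.062 for all copies and 2 to 3 calls. At 24 h it gave 0.40 to 1.15 for RN7SL2, 0.28 to 1.105 for RN7SL1, 0.35 to 1.14 for all copies, -0.22 to 0.16 for chr1 and -0.27 to 0.48 for chr19. At 12 h less 6 h it left 0 calls. At 24 h less 6 h it gave -0.082 to 0.75 for RN7SL1, 0.87 to 1.55 for the other copies, -0.022 to 0.78 for all copies, -0.13 to 0.25 for chr1, -0.61 to 0.14 for chr19 and 0 to 2 calls. A lone sample was assumed to vary like the other groups. Copies with fewer than 10 counts are too shallow for any statement.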
